A study of Mus musculus with 8 samples.

Results

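Every alpha or beta chain of the T cell receptor begins with a variable domain encoded by 1 V segment, and the genes of these segments in mouse carry symbols that start with Trav (alpha chain) or Trbv (beta chain). All 163 genes with such a symbol among the 32285 genes of the deposited matrices were taken, 128 Trav and 35 Trbv, whatever their level. UMIs (unique molecular identifiers, each standing for 1 captured RNA molecule) were summed per sample, and each segment was read as a share of all Trav or all Trbv UMIs, per cell and as CPM, the UMIs per 1000000 UMIs of the sample. Of the 163 segments, 84 Trav with 4596 UMIs and 24 Trbv with 16137 UMIs were seen in the 16338 cells used, and 44 Trav and 11 Trbv had none.

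The cells were activated CD8 T cells of 3 donor mice, grown together with bone marrow stromal cells (BMSCs) whose mitochondria carry the red fluorescent protein dsRed. Cells that had acquired dsRed (MitoPositive) were sorted from cells that had not (MitoNegative). Both arms were sequenced directly (d0) or put into B6 mice with B16KVP tumors, a mouse melanoma line, and taken back from spleen and tumor on day 7. With 1 sample per donor in each of the 6 groups there were 18 samples, told apart by hashtag antibodies. All groups share the activation and the co-culture, and the labels name neither the donors' strain, genotype or age nor any receptor transgene. At day 7 a donor's MitoPositive and MitoNegative cells had been placed in different recipients, so recipient and arm cannot be told apart there, whereas the spleen and tumor cells of 1 arm and donor share their recipients. The labels hold conflicting lists of which d0 hashtags were MitoPositive. The odd-numbered hashtags were used here, as in the deposited hashtag list and readme.

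In a developing T cell, recombination joins a V segment to a joining segment (with a diversity segment between them in the beta chain) and so to the constant part, Trac, Trbc1 or Trbc2. The choice is fixed in the DNA and passed to all daughter cells, so a segment that is frequent among cells of 1 sample can mark cells that descend from 1 ancestor, and a beta chain is as a rule made from 1 of the 2 copies of the locus. CD8 T cells of an ordinary mouse use many Trbv segments. Mice with a receptor transgene carry 1 ready-joined chain pair in most T cells, and Trbv14 is the beta segment of a widely used transgenic receptor against the melanoma antigen gp100.

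The last 300 bases of the coding sequences (GENCODE M21, build GRCm38, exons joined, plus strand) of the 2 most abundant Trbv segments are shown first because these turned up together in the same cells. Capitals mark the codons of the conserved tyrosine-any-cysteine stretch near the 3′ end, where the variable domain closes and the joined region begins.
Trbv14: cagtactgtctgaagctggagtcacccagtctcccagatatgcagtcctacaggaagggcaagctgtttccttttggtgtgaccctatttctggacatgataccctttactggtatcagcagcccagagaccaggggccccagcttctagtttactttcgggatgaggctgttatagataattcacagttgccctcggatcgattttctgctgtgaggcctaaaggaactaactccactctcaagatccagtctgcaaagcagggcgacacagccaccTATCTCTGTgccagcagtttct
Trbv13-1: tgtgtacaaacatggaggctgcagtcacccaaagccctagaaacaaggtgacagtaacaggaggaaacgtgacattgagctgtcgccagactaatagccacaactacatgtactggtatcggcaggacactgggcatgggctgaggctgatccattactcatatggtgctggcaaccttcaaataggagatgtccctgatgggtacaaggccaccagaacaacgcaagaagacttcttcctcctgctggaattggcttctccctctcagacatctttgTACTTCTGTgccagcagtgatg
The Trbv14 coding part (346 bases) lies in 2 exons within chr6:41135167-41135616, and that of Trbv13-1 (334 bases) within chr6:41116036-41116468, nearer the 5′ end of the same locus. Over 329 aligned bases the pair was 57.8% identical.

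The next pair is shown because a read may not tell them apart. Trav16 (chr14:53743174-53743705) and Trav16n (chr14:53351090-53351621) differed at 5 of 350 aligned bases (98.6% identity), and 3 further bases are present in Trav16n alone. Capitals mark the 4 differing bases within the last 300.
Trav16: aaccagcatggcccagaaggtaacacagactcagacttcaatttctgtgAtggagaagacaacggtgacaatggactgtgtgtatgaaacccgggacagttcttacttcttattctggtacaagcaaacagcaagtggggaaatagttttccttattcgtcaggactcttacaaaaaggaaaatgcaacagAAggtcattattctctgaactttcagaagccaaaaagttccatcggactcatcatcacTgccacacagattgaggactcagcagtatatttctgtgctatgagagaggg
Trav16n: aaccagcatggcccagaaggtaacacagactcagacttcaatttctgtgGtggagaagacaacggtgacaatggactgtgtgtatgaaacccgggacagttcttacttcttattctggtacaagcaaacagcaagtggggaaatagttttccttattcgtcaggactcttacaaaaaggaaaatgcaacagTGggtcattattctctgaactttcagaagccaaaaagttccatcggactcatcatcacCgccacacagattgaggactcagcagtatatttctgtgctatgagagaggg
Trav9-4 (chr14:53676196-53676630) and Trav14n-3 (chr14:53370296-53370575, where the annotation holds the V exon alone, shown whole) are given because each led the Trav UMIs of a single spleen sample. Capitals again mark the tyrosine-any-cysteine codons.
Trav9-4: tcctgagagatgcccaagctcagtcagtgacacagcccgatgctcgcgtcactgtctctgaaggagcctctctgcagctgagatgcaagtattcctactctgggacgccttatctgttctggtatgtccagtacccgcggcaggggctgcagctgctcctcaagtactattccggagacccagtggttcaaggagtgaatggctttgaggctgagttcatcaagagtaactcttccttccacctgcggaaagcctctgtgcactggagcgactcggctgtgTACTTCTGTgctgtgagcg
Trav14n-3: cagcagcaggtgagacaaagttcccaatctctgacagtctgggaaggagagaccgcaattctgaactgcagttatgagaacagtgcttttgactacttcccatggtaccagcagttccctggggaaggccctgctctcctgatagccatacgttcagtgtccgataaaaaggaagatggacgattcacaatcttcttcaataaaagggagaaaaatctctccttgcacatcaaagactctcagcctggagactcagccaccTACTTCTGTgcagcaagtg

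Samples held 30 to 3417 cells and 323344 to 26560592 UMIs, and the smallest were the MitoNegative tumor samples of donors 1, 2 and 3 (30, 85 and 116 cells) and the MitoPositive spleen sample of donor 3 (49 cells). The 4 libraries shared 5 to 16 of their cell barcodes with the others. Barcodes with hashtags of 2 samples were removed and no other doublet caller was run. All 7 T cell markers were found in every sample, with a summed level of 2976 to 6176 CPM. Myeloid markers (all 8 genes in the spleen) summed to 96.2 to 724 CPM in MitoPositive spleen samples, with the highest value in donor 3, and to 91.9 to 187 in MitoNegative ones. Melanoma markers reached 1414 in the MitoNegative tumor sample of donor 3, and the CD4 T cell markers reached 18.4 in the MitoNegative spleen samples and 4.24 in the MitoPositive ones.

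The kit reads RNA from the 3′ end, far from the V segment, so few receptor molecules were read at the V segment. Trbv UMIs amounted to 1.58 to 3.99 per 100 UMIs of the constant genes Trbc1 and Trbc2, and Trav UMIs to 4.31 to 14.8 per 100 of Trac. In 16338 cells, 8124 held a Trbv UMI and 3166 a Trav UMI, and 1883 held both. A cell without a V segment UMI is therefore not a cell without a receptor. Of the 66 day 7 cells in the clusters left out for lack of Cd3 UMIs, 4 (6.06%) held a Trbv and 1 (1.52%) a Trav UMI at a median of 4544 UMIs per cell, against 51.3% and 18.2% of the 10728 day 7 cells kept, at a median of 6658. In sums over cells, fewer cells with a segment and less of its RNA per cell cannot be told apart.

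Trbv14 (ENSMUSG00000076471, chr6:41135145-41135616) held 13966 of the 16137 Trbv UMIs, 86.5%, and was seen in 6983 cells and in all 18 samples. Trbv13-1 followed with 416 UMIs (2.58%), and these were the only Trbv segments with at least 2%. Trbv12-2 had 280 UMIs (1.74%), Trbv12-1 171, Trbv20 165, Trbv29 125, Trbv19 119 and Trbv2 116. Of the 35 Trbv genes 13 are annotated as pseudogenes, 3 of which had UMIs, 22 in all.

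At d0, Trbv14 held 94.3%, 79.9% and 70.6% of Trbv UMIs in the MitoPositive samples of donors 1, 2 and 3, and 95.1%, 79.3% and 78.0% in the MitoNegative ones. With the hashtag list used here, donor 1 stood above donors 2 and 3 in both arms, and the arms overlapped. The means were 81.6% ± 11.9 and 84.2% ± 9.52 (SD, n = 3, two-sided exact permutation p = 0.8). These statements depend on that list, as the difference in means changed sign with the other list of d0 hashtags. This test and the later permutation tests did not use the donor pairing, so the spread between donors enters their p. The Trbv UMIs of donors 2 and 3 were spread over 19 to 23 segments, and Trbv12-2 had 28 and 47 UMIs in their MitoPositive samples.

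In the spleen at day 7, Trbv14 held 79.0%, 66.4% and 67.4% of Trbv UMIs in the MitoPositive samples of donors 1, 2 and 3 and 96.8%, 90.8% and 85.3% in the MitoNegative ones. The lowest MitoNegative sample lay above the highest MitoPositive one. The sample of donor 3 with 49 cells rests on 43 Trbv UMIs (exact 95% interval 51.5 to 80.9%, counting error only). The difference in means (MitoPositive minus MitoNegative) was -19.997 percentage points, with p = 0.1 in the two-sided exact permutation test, which is the smallest p that 3 against 3 samples allow, and 0.5 after Benjamini-Hochberg adjustment over all 70 such tests of V segment measures. With 1 donor left out it was -21.1 to -17.8 points. The effective number of Trbv segments (the inverse Simpson index, which is 1 when a single segment holds all UMIs) was 1.59, 2.22 and 2.19 in MitoPositive and 1.07, 1.21 and 1.37 in MitoNegative spleen samples.

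**Figure D1:**
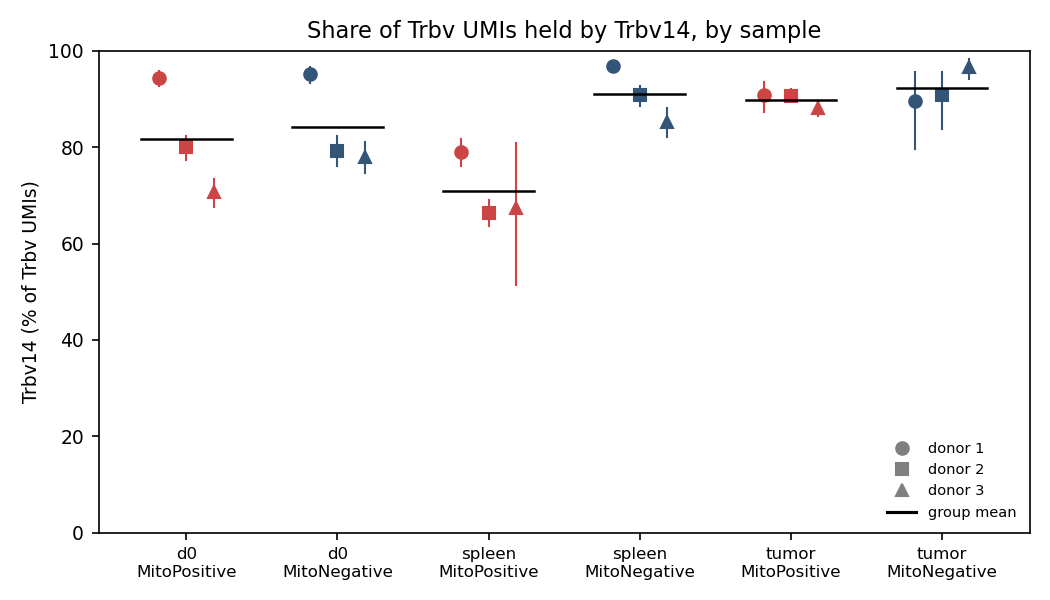
Trbv14 as a percentage of all Trbv UMIs (vertical axis) in the 18 samples, by group. Symbols are donors, thin lines exact 95% intervals for counting error and horizontal bars group means; the MitoPositive spleen samples, at 66.4 to 79.0%, lie below all MitoNegative spleen samples and all tumor samples.

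The remaining Trbv UMIs of the MitoPositive spleen samples were not held by 1 other segment. In donor 1 the next was Trbv12-2 (3.46%), in donor 2 Trbv20 (5.59%) and in donor 3 Trbv3 (9.30%, of 43 UMIs). Across all genes, edgeR's quasi-likelihood test on summed UMIs called 3.28% of 11951 genes between the arms in spleen at an adjusted p under 0.05, and none of the 13 V segments that passed the count filter. At an unadjusted p under 0.05 there were 8 of these 13 and 1889 of all 11951 genes, and DESeq2 called 2 of the 13, Trbv14 and Trav16n, and 590 of all genes. The segments that passed the filter are those with the most UMIs, so they do not stand for all 163. Their median log2 difference (MitoPositive minus MitoNegative) was 1.55, against 0.00 for all genes. Trbv14 itself had a log2 difference of -0.38 ± 0.11 (SE; adjusted p = 0.081). Trbv12-2 came to 2.25 ± 0.63 (adjusted p = 0.077), Trbv19 to 3.20 ± 0.88 (0.073) and Trbv20 to 2.32 ± 0.79 (0.149), all in edgeR. With donor 1 or donor 2 left out, no V segment was called. Without donor 3, whose MitoPositive sample held 49 cells, 6 of 16 segments tested passed, beside 979 of 12312 genes. Trav16n, Trbv12-2, Trbv19, Trbv20 and Trbv29 had a positive difference and Trav9-4 a negative one. For Trbv29 the donor left out went the other way, with 0 UMIs in its MitoPositive and 6 in its MitoNegative spleen sample.

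In the tumor the arms overlapped. Trbv14 held 90.7%, 90.7% and 88.1% of Trbv UMIs in MitoPositive and 89.6%, 90.8% and 96.7% in MitoNegative samples of donors 1, 2 and 3, with means of 89.9% ± 1.51 and 92.4% ± 3.81 (SD, n = 3, exact permutation p = 0.4). The MitoNegative values rest on 67, 109 and 333 Trbv UMIs. The fit called 0.418% of 11951 genes and none of 13 V segments between the arms in the tumor, with 0 at an unadjusted p under 0.05 (1602 of all genes) and 0 by DESeq2. Trbv14 differed by 0.19 ± 0.11 on the log2 scale (edgeR adjusted p = 0.526). At d0 the fit called 9.26% of 11436 genes, 20.1% with the donor as a block, and none of 13 V segments either way (1 at an unadjusted p under 0.05, beside 2641 of all genes, and 0 by DESeq2). Trbv14 differed there by -0.02 ± 0.17 (edgeR adjusted p = 0.963).

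Between tumor and spleen of the same recipients, the MitoPositive arm changed. Trbv14 made up 88.1 to 90.7% of Trbv UMIs in the tumor and 66.4 to 79.0% in the spleen, a difference of 18.9 points in means, in the same direction in 3 of 3 donors and without overlap (exact permutation p = 0.1, adjusted 0.5). The Trbv14 level stood at 131, 100.4 and 129 CPM in the MitoPositive tumor samples and at 99.1, 63.5 and 89.7 in the matching spleen samples, so the tumor value was the greater in each donor. In the fit, Trbv14 rose by 0.66 ± 0.11 on the log2 scale (SE, edgeR adjusted p = 3.3e-04). This held in every alternative run, with 0.52 to 0.77 when a donor was left out. The background is high: 53.6% of all 11951 genes passed in this comparison, 27.1% as higher in the tumor and 26.5% as lower (edgeR), and 3 of the 13 V segments did.

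The other called segments of the MitoPositive arm were Trbv20 and Trav22, both lower in the tumor. Trbv20 had 12, 68 and 1 UMIs in the spleen samples of donors 1, 2 and 3 and 0, 23 and 4 in the tumor samples. Most of its UMIs came from donor 2, and in CPM the summed tumor level was 0.221 of the spleen level (exact 95% interval of the ratio 0.137 to 0.345, counting error only). Its log2 difference was -2.55 ± 0.82 (edgeR adjusted p = 0.019), which was lost without donor 1 (adjusted p = 0.113), without the donor block (0.081) and, as the gene was then filtered out, without donor 2. In the MitoNegative arm Trbv14 differed by 0.09 ± 0.11 between tumor and spleen (edgeR adjusted p = 0.558), and its share by 1.42 points (exact permutation p = 0.9). The difference between the arms in that tumor-to-spleen contrast was 0.57 ± 0.16 for Trbv14 (edgeR adjusted p = 0.136). In this interaction 0% of 11951 genes and none of 13 V segments passed, with 1 segment, Trbv14, at an unadjusted p under 0.05 and none by DESeq2.

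Against d0, the Trbv14 share of the spleen samples differed in opposite directions in the arms. In MitoPositive samples each donor's value was below its d0 value, with a difference in means of -10.7 points (exact permutation p = 0.2). In MitoNegative samples each donor's value was above it, with a difference of 6.79 points (exact permutation p = 0.3). In the fit of all 18 samples, the change of the arm difference from d0 to the spleen was called for 9.65% of 12801 genes (2.78% higher, 6.87% lower, edgeR) and for 1 of 20 V segments. That 1 was Trbv29, with 12, 21 and 0 UMIs in MitoPositive and 0, 0 and 6 in MitoNegative spleen samples, against 3, 17 and 14 and 2, 12 and 10 at d0. Its log2 difference of differences was 3.74 ± 1.15 (edgeR adjusted p = 0.048). It did not pass without donor 1 (0.323), without the donor block (0.258) or with the other list of d0 hashtags (0.165), and it was filtered out without donor 2 and with HTODemux hashtag calls.

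Few cells held more than 1 Trbv segment, but Trbv13-1 was found beside Trbv14 more often than the other segments were. Of the 8124 cells with a Trbv UMI, 6541 held Trbv14 alone, 442 Trbv14 with another segment and 1141 other segments only. In all, 544 cells (6.70% of those with a Trbv UMI) held several segments, or 8.79% at d0, 4.05% in spleen and 10.3% in tumor samples, where cells were read more deeply (median 15017 UMIs against 6279 in the spleen). Of the 386 cells with Trbv13-1, 245 (63.5%, exact 95% interval 58.4 to 68.3%) also held Trbv14, which is above the 42.7% of all cells. By place this was 57.6% (d0), 53.2% (spleen) and 81.0% (tumor), where Trbv14 was found in 38.9%, 40.8% and 61.3% of all cells. In the other 14 segments seen in at least 50 cells the share ran from 1.85% (Trbv17, 1 of 54 cells) to 40.9% (Trbv31, 27 of 66 cells, interval 29.0 to 53.7%). Trbv12-2, in 224 cells, was at 17.9% (13.1 to 23.5%).

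Trbv13-1 was in 3.51% of cells with Trbv14 and in 1.51% of cells without, with 1.08 UMIs per cell that held it. Its share of Trbv UMIs was 1.73 to 3.71% in the 15 samples with at least 300 Trbv UMIs. After Trbv14 it came next in all MitoNegative spleen and all MitoPositive tumor samples. At d0 it came next in donors 1 and 2 of both arms, and in the MitoNegative tumor in donor 3. Other segments came next in the remaining samples. Its gene starts upstream of Trbv14 on the same strand of chromosome 6. The share of Trbv13-1 cells with Trbv14 was highest in the tumor, where Trbv14 was found in the most cells and cells were read most deeply, and the part of depth was not tested.

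**Figure D2:**
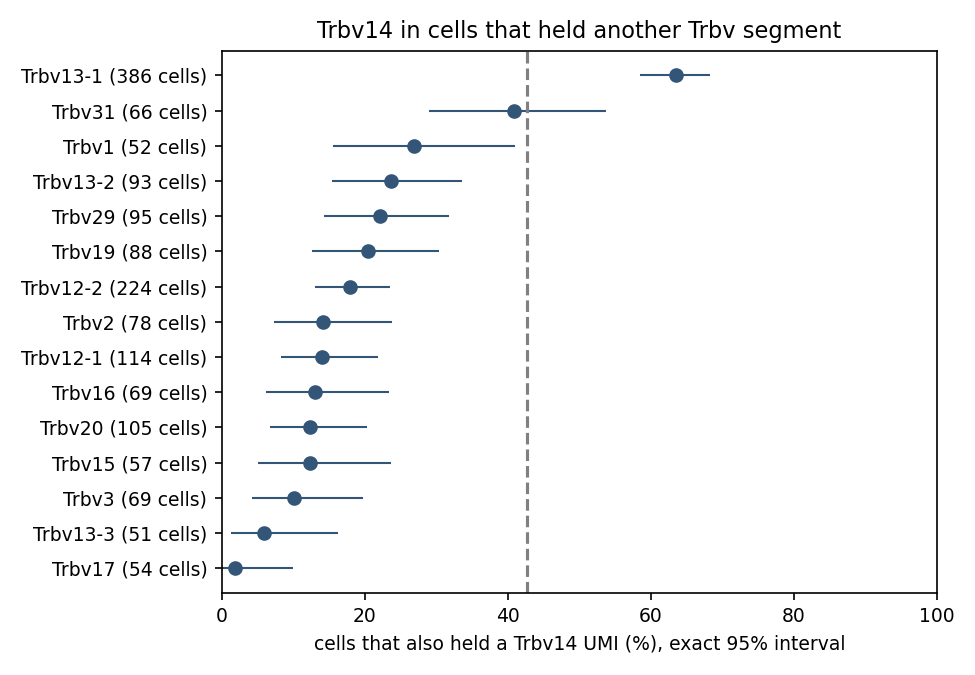
Percentage of cells with a given Trbv segment that also held a Trbv14 UMI (horizontal axis, points with exact 95% intervals), for the 15 other segments seen in at least 50 cells. The dashed line is the share of all cells with Trbv14, 42.7%; Trbv13-1 at 63.5% lies above it and Trbv31 at 40.9% beside it, while the intervals of the remaining segments end below it.

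The Trbv14 share also differed between clusters of day 7 cells. Clusters were made from 2000 variable genes per day, among which Trbv14 was not, although 9 Trav and 2 other Trbv genes were at day 7. Cells are not replicates, so these shares are a description, with intervals for counting error only. In cluster 0, the most numerous (3328 cells, led by Cd7, Id3 and Gpr55), Trbv14 held 95.9% of Trbv UMIs (95.1 to 96.6%). In cluster 2 (1267 cells, mostly tumor, led by Nrgn, Gzmc and Spp1) it held 95.3%, and in the dividing cells of cluster 4 (977 cells, histone genes and Nusap1) 95.4%.

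Lower shares were seen in 4 clusters with many UMIs outside Trbv14. In cluster 1 (1609 cells, whose leading genes include Art2b, Bcl2 and Lef1, genes of resting and memory T cells) Trbv14 held 68.6% (65.8 to 71.4%). In cluster 3 (978 cells, led by Gzma, Cx3cr1 and Ccl5, genes of effector cells) it held 58.2% (53.8 to 62.4%). In the tumor-derived cluster 5 (705 cells, led by Ifng, Ccl4 and Rgs1, genes induced by receptor signals) it held 66.7% (63.1 to 70.2%), with 56.5% (52.0 to 60.8%) in MitoPositive and 92.1% (87.5 to 95.4%) in MitoNegative tumor samples. Cluster 7 (477 cells), led by the macrophage genes C1qa and C1qb, held 77.8%. Cluster 11 (74 cells, led by Igfbp4, Pdlim4 and Cd4) had 4 Trbv14 among 48 Trbv UMIs (8.33%, 2.32 to 19.98%) and 17 different Trbv segments, and it made up 6.28% of the MitoNegative spleen sample of donor 3. Cluster 10 (114 cells) had few Trbv UMIs at all, 20, or 13.9 CPM against 97.0 to 169 in the other day 7 clusters.

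**Figure D3:**
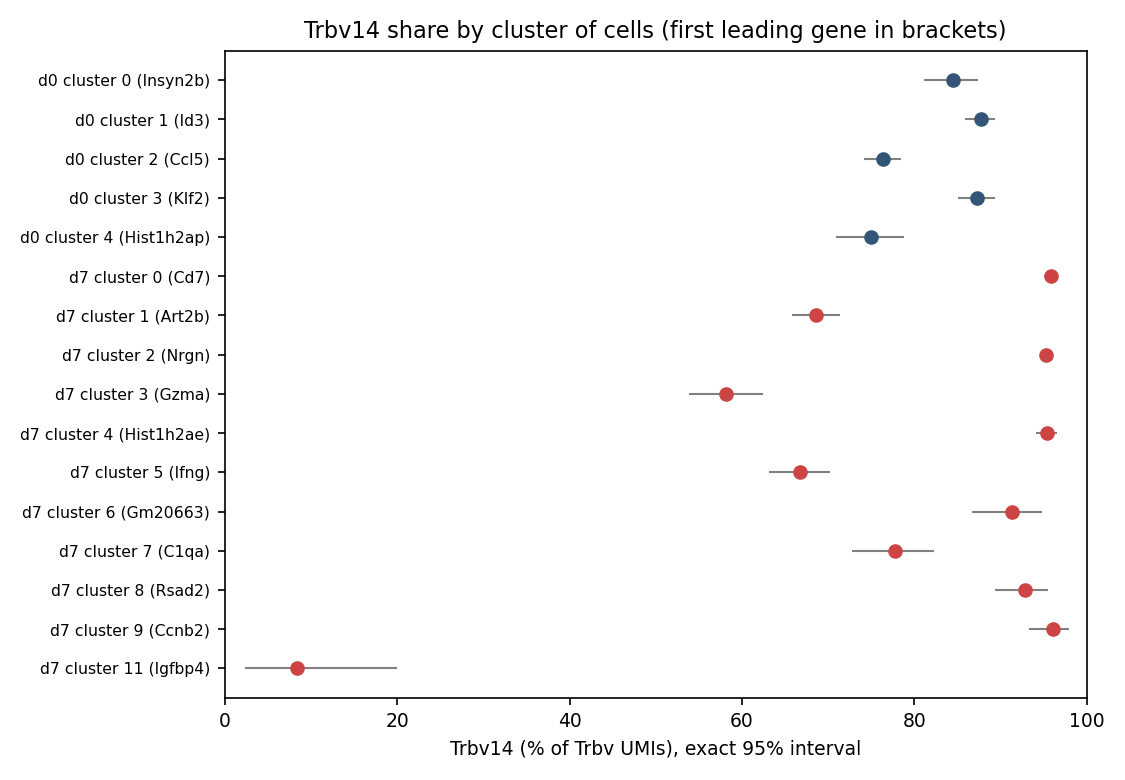
Trbv14 as a percentage of Trbv UMIs (horizontal axis, exact 95% intervals) in each cluster with at least 40 Trbv UMIs, d0 in blue and day 7 in red, named by its first leading gene. At day 7 clusters 1, 3, 5 and 7 lie between 58.2 and 77.8%, cluster 11 at 8.33%, and the others above 90%.

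The arms filled these clusters unequally in the spleen. Clusters 1 and 3 held 29.7% and 28.4% of the MitoPositive cells of donor 1, 41.8% and 21.0% in donor 2 and 26.5% and 32.7% in donor 3. In the MitoNegative samples they held 3.28% and 1.40%, 7.97% and 6.10%, and 13.9% and 2.96%. Cluster 0 in turn took 49.0 to 55.1% of MitoNegative and 12.2 to 20.04% of MitoPositive cells. Within cluster 0 the Trbv14 share was 95.02% and 90.4% in MitoPositive samples of donors 1 and 2 and 97.1%, 96.5% and 94.5% in MitoNegative ones, so there the arms were closer than in the whole samples. Within cluster 1 it was 66.0% and 67.3% in MitoPositive samples of donors 1 and 2, and 97.5%, 58.7% and 38.5% in MitoNegative ones. Within cluster 3 it was 76.2% and 23.9% against 95.7% and 61.8% in donors 1 and 2. Donor 1 had the lower share in its MitoPositive sample in both clusters, whereas donor 2 had the higher share there in cluster 1 and the lower one in cluster 3. In cluster 4 the MitoPositive samples of donors 1 and 2 held 93.3% and 72.7% (of 30 and 33 Trbv UMIs) and the MitoNegative ones 96.1% and 96.2%. In cluster 7 they held 77.0% and 43.2% against 97.5% and 75.9%, so in both clusters the MitoPositive share was the lower in these donors.

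In the tumor, cluster 2 held 95.3%, 95.2% and 95.2% Trbv14 in the MitoPositive samples of the 3 donors. Cluster 5, from the same samples, held 81.4%, 59.3% and 42.9%, below cluster 2 in each. The MitoNegative samples did not show this order throughout: cluster 5 held 77.8%, 91.0% and 97.7% in donors 1, 2 and 3 (27, 89 and 87 Trbv UMIs), and cluster 2 held 100% of 39 UMIs in donor 1 and 96.2% in donor 3. The median depth of cluster 2 was 21215 UMIs per cell and that of cluster 5 was 6591. In the tumor as a whole, cells with Trbv14 alone had a median of 20125 UMIs and cells with only other Trbv segments 7000. At d0 the clusters spanned less: 75.0% in the dividing cells of cluster 4 and 76.4% in cluster 2 (led by Ccl5, Samd3 and S100a4) against 84.4 to 87.7% in the other 3.

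The alpha chain was far more mixed. The 5 leading Trav segments held 40.6% of the 4596 Trav UMIs: Trav16 with 415 (9.03%), Trav16n with 413 (8.99%), Trav3-3 with 363 (7.90%), Trav22 with 351 (7.64%) and Trav6-7-dv9 with 326 (7.09%). In all, 13 segments reached 2%, the others being Trav12-2, Trav9-4, Trav14n-3, Trav21-dv12, Trav5-4, Trav4-4-dv10, Trav19 and Trav14-2. The locus on chromosome 14 holds duplicated blocks, whose copies carry the letters d or n in their symbols, and reads that match several copies are not counted. Of the 128 Trav segments, 74 shared more than 50% of their 50-base stretches with another annotated transcript, and 36 of these had a UMI, against 48 of the 54 others. Among the 35 Trbv segments none shared that much. Levels of single Trav copies are therefore uncertain, and joined by family Trav16 held 19.3%, Trav6 10.6%, Trav14 9.12% and Trav3 8.81%. The 13 segments of the Trav7 family summed to 201 UMIs (4.37%).

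Trav22 is annotated as a pseudogene, and it was the only one of the 20 Trav pseudogenes to reach 2%. All 9 pseudogenes with UMIs summed to 469. Trav11 and Trav11d, the segments of invariant NKT cells, had 0 UMIs, but all of their 50-base stretches also occur in another transcript, so reads not counted and reads not made cannot be told apart. Trav1, the segment of MAIT cells, had 21 UMIs in 19 cells of 8 samples.

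The effective number of Trav segments was 19.98 to 22.8 in the MitoPositive and 15.6 to 21.2 in the MitoNegative d0 samples. In the MitoNegative spleen samples it was 10.5, 4.41 and 13.9 in donors 1, 2 and 3, each below all d0 samples of that arm (difference in means -8.54, exact permutation p = 0.1, adjusted 0.5). In MitoPositive spleen samples it was 21.8 and 21.2 in donors 1 and 2, as at d0, and 7.58 in donor 3, whose sample had 14 Trav UMIs. The spleen arms overlapped (exact permutation p = 0.3). With segments joined by family the MitoNegative change from d0 was -2.28 (exact permutation p = 0.3).

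A few segments led single samples. In the MitoNegative spleen sample of donor 2, Trav9-4 held 133 of 312 Trav UMIs (42.6%, exact 95% interval 37.1 to 48.3%) in 99 of 1229 cells. Among the samples with at least 100 Trav UMIs its next highest share was 1.92%, and 75.6% of all Trav9-4 UMIs came from this 1 sample. The tumor sample of the same donor and arm, from the same recipients, had 5 Trav9-4 among 24 Trav UMIs (20.8%), whereas the MitoPositive samples of donor 2 had 7 among 502 in the spleen and 1 among 285 in the tumor. In the MitoNegative spleen sample of donor 1, Trav14n-3 held 122 of 643 Trav UMIs (18.97%, 16.01 to 22.2%), in 99 of 3417 cells, against at most 2.56% in the other samples of that size. Trav22 held 108 UMIs (16.8%) in the same sample, but also 17.1% in the MitoNegative and 12.5% in the MitoPositive d0 sample of donor 1. In the MitoNegative spleen sample of donor 3, Trav21-dv12 held 38 of 215 (17.7%, 12.8 to 23.4%) in 22 of 541 cells.

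Each MitoNegative spleen sample thus had its own leading segment. In the MitoPositive arm the highest share in a sample with at least 100 Trav UMIs was that of Trav6-7-dv9, with 68 of 285 (23.9%) in the tumor sample of donor 2. It held 17.4% in the tumor sample of donor 1. Of its 57 cells in the sample of donor 2, 55 (96.5%) were in cluster 2, against 67.6% of the sample's other cells. Trav8d-2 and Trav12-3 stood out in the MitoPositive spleen sample of donor 1 without leading it. They held 32 and 29 of its 370 Trav UMIs (8.65% and 7.84%), against at most 1.49% and 2.99% in the other samples with at least 100. Trav3-3 held 13.5%, 19.9% and 11.2% of Trav UMIs in the MitoNegative spleen samples of donors 1, 2 and 3. It held 2.13 to 8.08% in the other samples with at least 50 Trav UMIs, so all 3 of those spleen samples stood above these. The MitoNegative tumor samples of donors 1, 2 and 3 had fewer Trav UMIs (9, 24 and 41). There Trav3-3 held 11.1%, 12.5% and 9.76% (1, 3 and 4 UMIs), which overlapped the spleen values of that arm.

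**Figure D4:**
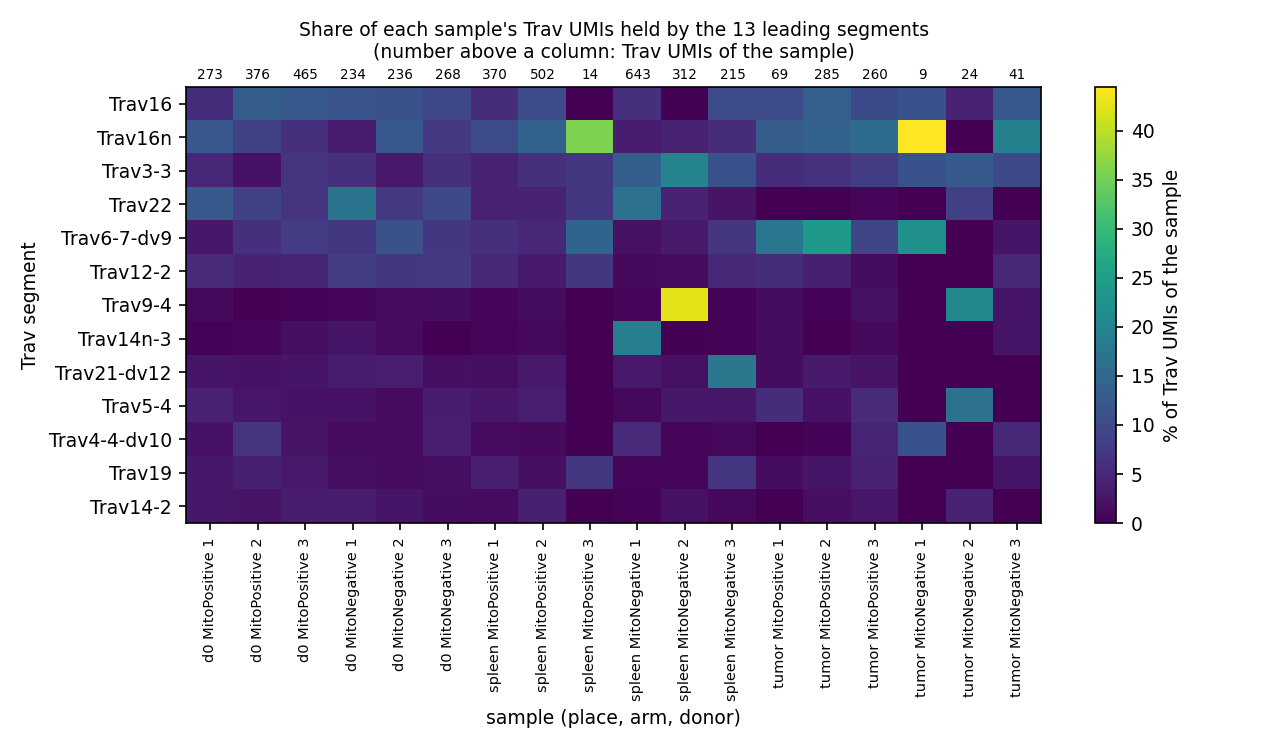
Share of each sample's Trav UMIs (colour, percent) held by each of the 13 segments with at least 2% of all Trav UMIs, rows ordered by total UMIs, columns by group and donor, with the sample's Trav UMIs above. Trav9-4 at 42.6%, Trav14n-3 at 18.97% and Trav21-dv12 at 17.7% each stand out in 1 MitoNegative spleen sample; columns with 9 to 41 UMIs are too thin to read.

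Among the cells with these leading segments in which a beta segment was seen, most held Trbv14, as did 6983 of the 8124 cells with a Trbv UMI over all samples. Of the 99 Trav9-4 cells in the MitoNegative spleen of donor 2, 47 (47.5%) held Trbv14 and 1 another Trbv segment, against 38.4% with Trbv14 among the sample's other cells. Of the 99 Trav14n-3 cells in that of donor 1, 57 (57.6%) held Trbv14 and 5 another segment, against 51.7% with Trbv14 among the others. Of the 22 Trav21-dv12 cells in that of donor 3, 11 held Trbv14 and 1 another segment, against 47.2% with Trbv14 among the others. For each of these segments, the joining segment with the largest excess over the sample's other cells was picked. A higher share in the cells with the V segment was thus fixed by the choice. Traj5 was found in 10 of the 99 Trav14n-3 cells (10.1%) and in 1.02% of the other cells of that sample. Traj58 was found in 8.08% of the 99 Trav22 cells of that sample and in 1.96% of its other cells. For Trav9-4 the joining segment so picked was Traj27, in 11.1% of cells against 7.08% of the others. For Trav21-dv12 it was Traj31, in 1 of 22 cells and in 0 of the others. For Trav6-7-dv9 in the MitoPositive tumor sample of donor 2 it was Traj49, in 5.26% of cells against 1.49% of the others. Joining segments are also read from RNA that was never joined, so a match in a cell does not show that the 2 segments are joined.

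Some Trav segments differed between cells with Trbv14 and cells with other beta segments. Among cells with a Trav UMI, 1432 held Trbv14 as their only Trbv segment and 307 held only others, with median depths over all cells of these classes of 8326 and 7340 UMIs. Trav16n was in 5.52% of the former (exact 95% interval 4.39 to 6.83%) and 16.6% of the latter (12.6 to 21.3%), and was lower with Trbv14 in 9 of the 9 samples with at least 10 cells of both classes. Trav22 was in 11.8% (10.2 to 13.6%) against 0.651% (0.0790 to 2.33%), higher with Trbv14 in 8 of 9 samples. Trav21-dv12 was in 5.03% against 0.651%, higher in 9 of 9. The near-identical Trav16 differed less, 8.17% against 9.77%, as did Trav3-3 with 8.73% against 7.82%. The intervals cover counting error over cells, which share samples, and no test was made.

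Trav22 was the 1 Trav segment called between the tissues in the MitoPositive arm. Its UMIs in MitoPositive samples of donors 1, 2 and 3 numbered 34, 33 and 31 at d0, then 15, 22 and 1 in spleen, then 0, 0 and 2 in tumor samples. In the MitoNegative samples they numbered 40, 18 and 26, then 108, 14 and 5, and then 0, 2 and 0. Every tumor sample thus held 0 to 2, at Trav totals of 69, 285 and 260 UMIs in the MitoPositive and 9, 24 and 41 in the MitoNegative arm. In the MitoNegative tumor sample of donor 2 those 2 UMIs made up 8.33% of Trav UMIs (1.98 CPM). The matching spleen sample stood at 4.49% (1.78 CPM), so the MitoNegative tumor counts are too small to show a low level in each donor. The MitoPositive arm had more UMIs. In that arm the summed tumor CPM was 0.0349 of the spleen level (exact 95% interval 0.00408 to 0.135), and in the fit Trav22 fell by 4.08 ± 1.02 on the log2 scale (SE, edgeR adjusted p = 0.0048). With 2 UMIs left in the tumor the fitted size is loose. It was -2.34 with HTODemux hashtag calls (adjusted p = 0.069) and -3.04 without donor 2 (0.089), and called in the other 6 alternatives. In the MitoNegative arm the ratio was 0.139 (0.0167 to 0.513), and the log2 difference of -1.92 ± 1.16 was not called (edgeR adjusted p = 0.203).

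In the MitoNegative arm 43% of 11951 genes passed between tumor and spleen, 20.1% of the 11951 as higher and 22.9% as lower in the tumor (edgeR), and 1 of 13 V segments did. This was Trav3-3, at 3.28, 7.87 and 5.88 CPM in the spleen and 2.01, 2.98 and 1.40 in the tumor of donors 1, 2 and 3, where 8 UMIs were counted in all. The groups did not overlap. Trav3-3 fell by 1.53 ± 0.54 on the log2 scale (edgeR adjusted p = 0.037), but was not called with DESeq2, with HTODemux calls, without the count filter or without any 1 of the donors (adjusted p from 0.066 to 0.386 in these 6 settings). In the MitoPositive arm it differed by -0.71 ± 0.47 (adjusted p = 0.219).

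Levels were also summed over all segments of a chain. The Trav and Trbv differences between tissues were each tested alone and were not compared with each other. Trav levels in CPM were 51.8, 39.5 and 43.3 in MitoPositive and 24.2, 39.6 and 52.6 in MitoNegative spleen samples of donors 1, 2 and 3. In the tumor they were 27.2, 17.3 and 22.7, and 18.1, 23.8 and 14.4. All tumor values were below all spleen values of the same arm, with differences in means of -22.5 and -20.04 (exact permutation p = 0.1 and adjusted 0.5 for each). In the MitoNegative arm donors 1 and 3 weighed most: the difference was -10.9 without donor 3 and -27.0 without donor 1. At d0 the values were 38.7 to 45.2. The 5 markers of gamma delta T cells, whose delta chain genes lie within the alpha locus, summed to 71.5 to 178 CPM in spleen and 14.7 to 90.3 CPM in tumor samples, and their part in the difference was not tested.

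Trbv levels overlapped between all groups. At d0 they were 94.9 to 132 CPM, spleen samples had 95.6 to 138, and tumor samples 108 to 146. The tumor minus spleen differences in means were 15.7 in the MitoPositive arm (exact permutation p = 0.5) and -0.378 in the MitoNegative arm (p = 1, exact). Per cell, Trbv UMIs were 2.13, 1.83 and 2.50 in MitoPositive tumor samples and 0.783, 0.534 and 0.878 in the spleen, and 2.23, 1.28 and 2.87 against 0.964, 0.635 and 1.04 in the MitoNegative arm. The tumor values lay above the spleen values without overlap (differences 1.42 and 1.25, exact permutation p = 0.1 each). Cells in the tumor also had more UMIs of all kinds, with medians of 10067 to 21894 per cell against 5303 to 7366 in the spleen.

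With every cell thinned to 3000 UMIs the differences per cell were 0.0623 and 0.0100. The share of cells with a Trbv UMI was 61.2 to 79.3% in the tumor and 36.9 to 57.1% in the spleen before thinning, and 26.8 to 41.4% and 24.1 to 31.3% after, with 1 to 47 cells per tumor sample and 1 to 372 per spleen sample too shallow to keep. At d0 the MitoPositive samples held 0.956, 1.10 and 0.953 Trbv UMIs per cell and the MitoNegative ones 0.712, 0.851 and 0.731, without overlap (difference 0.239, exact permutation p = 0.1). After thinning the difference was -0.0161. The median depths at d0 were 6928, 8322 and 8599 UMIs per cell in MitoPositive and 5875, 7392 and 7187 in MitoNegative samples.

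**Figure D5:**
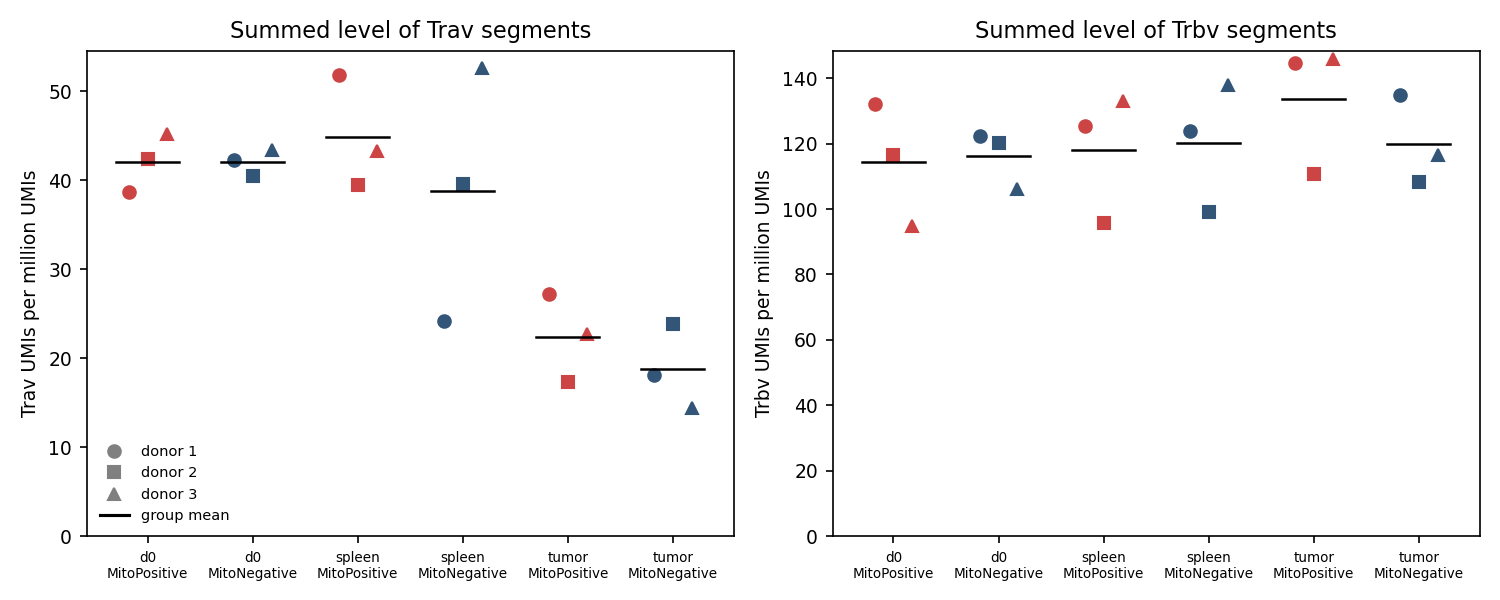
Summed Trav (left) and Trbv (right) UMIs as CPM (UMIs per 1000000 UMIs of the sample), by group, with donors as symbols and group means as bars. Trav lies at 14.4 to 27.2 in all tumor samples and at 24.2 to 52.6 in the spleen and d0 samples, and Trbv overlaps between all groups.

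Other genes of the receptor were read from a list of the constant, CD3, joining and recombination genes. Of the 7 genes of the complex (Trac, Trbc1, Trbc2, Cd3d, Cd3e, Cd3g and Cd247, the last 4 encoding the signalling chains), none passed between the arms at d0. In the spleen Trbc2 alone did, lower in MitoPositive cells by 0.40 ± 0.08 on the log2 scale (edgeR adjusted p = 0.024), the same direction as Trbv14. It was not called with HTODemux calls, without the block or without any 1 donor. In the tumor Cd3g alone passed, at 0.44 ± 0.09 (adjusted p = 0.0499), and was not called in 6 of 8 alternatives.

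Between tumor and spleen, Trbc1 and Trbc2 rose in the MitoPositive arm by 0.70 ± 0.15 and 0.71 ± 0.08 (edgeR adjusted p = 0.0021 and 2.2e-05), beside the rise of Trbv14. Trac, at 371 ± 30.1 CPM in the MitoPositive tumor and 397 ± 55.3 in the spleen samples (SD, n = 3), did not pass in either arm. Cd247, which encodes the zeta chain, fell by 0.86 ± 0.11 in the MitoPositive and 0.94 ± 0.11 in the MitoNegative arm (edgeR adjusted p = 3.4e-05 and 3.2e-05). In the MitoNegative arm Cd3d, Cd3e and Cd3g also fell, by 0.44, 0.28 and 0.43, and the call of Cd3e was lost in all 8 alternatives.

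Joining segments lie between the V segments and the constant genes. Of 60 Traj genes 59 had UMIs (4148), led by Traj27 with 20.1%, Traj12 with 10.7% and Traj33 with 10.3%, and all 14 Trbj genes did (3139), led by Trbj2-7 with 45.5% and Trbj1-1 with 12.1%. Few of them passed the count filter, 9 Traj and 5 Trbj at d0 and 6 and 5 in the day 7 fit. None of these was called between the arms, beside 9.26% of all genes at d0, 3.28% in spleen and 0.418% in tumor (edgeR). With so few genes tested, 0 calls is near those shares. Traj27 was lower in the tumor in both arms (-2.32 ± 0.29 and -1.28 ± 0.33, edgeR adjusted p = 4.1e-05 and 0.0077), as was Trbj2-7 (-1.07 ± 0.29 and -1.56 ± 0.39, adjusted p = 0.0075 and 0.0061), against the direction of Trbv14. Traj33 was lower in the MitoPositive arm (-2.04 ± 0.50, adjusted p = 0.0043). Trdc, the constant gene of the delta chain, which lies in the alpha locus and is also read in CD8 cells, was lower in the tumor as well (-1.90 ± 0.27 and -1.22 ± 0.28, adjusted p = 9.2e-05 and 0.0039) and at d0 higher in MitoPositive cells (0.74 ± 0.16, adjusted p = 0.0097). The d0 call of Trdc was lost without donor 2 (adjusted p = 0.190) and with the other hashtag list (0.999), and the MitoNegative call without the block (0.077). Trbj2-7 was not called with HTODemux or without donor 2 in either arm, nor without donor 1 (MitoPositive) or donor 3 (MitoNegative), with adjusted p from 0.051 to 0.306. Traj27 was not called in the MitoNegative arm without donor 2 or 3 (0.136 and 0.086), nor Traj33 without donor 2 (0.108).

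The list also held 4 genes of recombination and chain assembly. Rag1 and Rag2, the recombinase, had 0 UMIs in every sample. Dntt, which adds bases at the joints, was found at d0, at 8.26 ± 1.70 CPM in MitoPositive and 19.2 ± 5.63 in MitoNegative samples (SD, n = 3), and was lower in MitoPositive cells by 1.19 ± 0.20 on the log2 scale (edgeR adjusted p = 0.0027). That call was lost without donor 2 (adjusted p = 0.113), and the difference was 0.14 with the other list of d0 hashtags. At day 7 its group means were at most 0.208 CPM. Ptcra, the surrogate alpha chain of developing T cells, had 167 UMIs in all, and its call between tissues in the MitoPositive arm (1.94 ± 0.69, adjusted p = 0.036) was lost with DESeq2, without the block and without donor 1.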

How the data were processed

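Single-cell 3′ RNA and hashtag libraries (10x v3.1) of 4 pools were used. The deposited matrices hold UMI counts for 32285 genes and the hashtags, written by Cell Ranger 7.0.0 per the file headers. The submitters' processing notes also name Seurat 4.0.5 and mm10 (GRCm38). Reads that match several genes are not counted by that program as a rule, which bears on duplicated Trav segments.

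Barcodes with at least 500 genes and under 15% mitochondrially encoded UMIs were kept, and were given their top hashtag if it had at least 10 UMIs and 3 times the next. Leiden clusters (scanpy 1.11.5, leidenalg 0.10.2, 30 principal components, resolution 0.5) with Cd3 UMIs in fewer than 50% of cells were left out. UMIs were summed for each of the 18 samples, which were the replicates and had to hold at least 20 cells. All genes were tested with edgeR 4.0.16 in R 4.3.3 (filterByExpr, TMM, quasi-likelihood, Benjamini-Hochberg threshold 0.05). The SE of an edgeR log2 difference was worked back as its absolute value divided by the square root of the F statistic, and is rough at few UMIs. The fit was also run on simulated counts with 1 fixed dispersion and no donor effect. That run does not cover segments with large jumps between samples. The d0 samples were fitted alone without a donor term, and the day 7 samples in 1 fit with library (donor) as a block. All 18 samples were fitted together for the change of the arm difference from d0 to spleen. Shares and levels were compared by two-sided exact permutation tests (scipy 1.17.1), which shuffled samples between the groups without regard to donor. Intervals cover counting error only, since cells of 1 sample are not independent animals.

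Donors were taken from the deposited hashtag list, so the donor pairs the samples. Deviations from group means correlated at 0.0802 to 0.368 for same-donor d0 samples and at -0.112 to 0.28 at day 7, against -0.331 to 0.0628 and -0.222 to 0.169 for different donors. Segments with at least 2% of Trav or Trbv UMIs, segments called in a comparison, Trav1, Trav11 and Trav11d, and the listed receptor genes were named. Other segments named were chosen after their values were seen. The members and lists were chosen with earlier results of these data known. Sequences and positions come from GENCODE M21, in which all 163 genes matched. Alternatives were DESeq2 1.42.0 and its size factors, no count filter, HTODemux (Seurat 5.3.0, quantile 0.99), the other list of d0 hashtags, the donor block left out or added, each donor left out, thinned cells, and other ways to count cells or join segments. A gene among those that lead clusters is not reported here.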

Additional observations from a re-analysis of the deposited data

Results flagged for a closer look

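The change of the arm difference from d0 to the spleen differed for Trbv29, by 3.74 on the log2 scale (edgeR adjusted p = 0.048), with 33 UMIs in the MitoPositive and 6 in the MitoNegative spleen samples. The Trbv14 share differed from d0 to the spleen by -10.7 points in MitoPositive samples (lower in 3 of 3 donors) and by 6.79 points in MitoNegative ones (higher in 3 of 3). The effective number of Trbv segments differed correspondingly by 0.448 and -0.223, again with every donor of an arm on the same side. Trbv UMIs per cell were higher in the MitoPositive arm at d0, by 0.239, in 3 of 3 donors, and lower in the spleen, by -0.149, in 3 of 3. For the last 3 measures each difference was tested alone (exact permutation p = 0.2 and 0.3 for the share and for the effective number, 0.1 and 0.4 for UMIs per cell), and the difference between the opposite differences was not tested.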

How the results depend on the processing

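Depth limits most segments: 13 of 163 passed the count filter in the day 7 fits, and the MitoNegative tumor samples held 9, 24 and 41 Trav UMIs. Of 299 values of named genes under the alternatives, 232 kept direction and side of the threshold. Of 178 shares and levels, for which direction alone was compared, 171 kept it, while 46 of 118 counts of calls moved. V segments called in spleen were 0, but 2 with DESeq2, 13 without the count filter and 0 to 6 with a replicate left out. In the spleen minus d0 contrast 1 became 0 with DESeq2 (which gave Trbv29 no adjusted p), HTODemux, the other d0 hashtag list and without the replicate block, 9 without the filter and 0 to 4 with a replicate left out. Between tissues 3 in the MitoPositive arm became 12 without the filter and 1 to 4 with a replicate left out, and 1 in the MitoNegative arm became 0 with DESeq2 and HTODemux, 2 without the filter and 0 with any replicate left out. In the main fits 3.28% of all genes passed in spleen, 9.65% in the spleen minus d0 contrast, and 53.6% and 43% between tissues. Without the filter more segments and more genes are tested, so those counts do not set V segments apart from other genes.

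Counts over all genes at d0 (1059) became 1623 without the filter, 0 with the other hashtag list, 2295 with the replicate block and 22 to 1216 with a replicate left out. The spleen minus d0 count (1235) became 596 with HTODemux, 24 with the other list and 339 to 1292. In spleen (392) it was 590 with DESeq2, 42 with HTODemux, 930 without the filter and 0 to 979. In tumor (50) it was 171, 4, 789 and 15 to 33. For the interaction (0 by edgeR, 1611 at unadjusted p under 0.05) the numbers were 157 with DESeq2, 876 without the filter, 7 without the replicate block and 0 to 420. Between tissues the leave-one-out counts were 3819 to 6676 (MitoPositive) and 3411 to 3931 (MitoNegative). Leaving out the block, or adding it at d0 (1141 genes and Trbv29 at 3.76 in the spleen minus d0 contrast, an alternative chosen after seeing the data), left Trbv14 on its side of the threshold in each comparison. Without the replicate block Trbv29, Trbv20, Trbc2, Cd3g, Cd3e, Ptcra and, between tissues in the MitoNegative arm, Trdc lost their calls, and no other call of a named gene changed with it.

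Some values changed sign. At d0 the Trbv14 log2 difference became 0.021 with HTODemux, 0.43 with the other list and -0.12 to 0.058 with a replicate left out, its share difference 13.8, the effective Trav number difference -1.68 and that of Dntt 0.14. Trbv UMIs per cell at d0 differed by -0.0161 in thinned cells. Trac between tissues in the MitoPositive arm became -0.0085 without the block and -0.046 to 0.11 with a replicate left out. With a replicate left out the Trbv14 share difference ranged from -4.35 to 0.536 between arms in tumor and from -3.59 to 5.74 between tissues in the MitoNegative arm, where the Trbv level differed by 1.12 with low-Cd3 clusters kept and by -6.05 to 10.03. The causes were not tested.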
